A study of Mus musculus with 8 samples.

Results

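Collagen genes were taken as all symbols of the form Col, a number, a and a number in the count tables, with at least 10 counts summed over the 8 libraries. Of 23212 symbols, 43 had this form and 41 had enough counts. The members comprised 11 fibrillar chains, 8 chains of basement membranes, 6 chains of type VI and 16 chains of other types. Of the 41 members, 35 passed the low-count filter and were tested. The minimum fell between Col10a1, at 15 counts in all, and Col9a2, at 9; Col9a1, at 5 counts, was the other symbol left out.

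The libraries came from whole perigonadal fat of C57BL/6 mice aged 20 weeks, 4 wild type and 4 with an adipocyte-specific knockout of 1 gene. Every mouse had eaten a diet with 45% fat for 12 weeks from the age of 8 weeks, and the genotypes were matched for age and weight per the series' design text. No group on another diet was analysed here. The promoter used for the adipocyte-specific deletion is not given in the sources used here. Library totals ran from 46444435 to 51431956 counts, and the totals of the genotypes gave an exact permutation p of 0.171. Fat was evident in each library: 5 adipocyte markers together held 13852 to 19672 CPM (counts scaled to library size) across wild-type mice and 11041 to 19359 across knockouts. The epithelial transcripts Epcam and Foxj1 stood out in wild-type mouse 3 and knockout mouse 2. Epcam reached 5.79 and 19.6 CPM and Foxj1 7.97 and 26.1 CPM in them. In the other 6 libraries they reached no more than 0.49 and 0.29 CPM. By these transcripts, both are called the libraries with epithelial transcripts below. In whole tissue, fewer cells of a type and less RNA per cell cannot be told apart.

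Collagens are secreted proteins whose chains wind into triple helices of repeated glycine-X-Y triplets. Fibrillar collagens (types I, II, III, V, XI, XXIV and XXVII) assemble into the fibrils that carry tension, type IV collagen forms the sheet-like network of basement membranes, and type VI collagen forms beaded filaments between the basement membrane and the fibrils. In fat, every adipocyte is wrapped in a basement membrane, fibroblasts and progenitor cells make most of the fibrillar collagen, and obesity is known for an enlarged and stiffer matrix in which type VI collagen figures prominently.

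Several members are neighbours in the genome, per the exon positions of the authors' deposited annotation (mm10). All 6 type IV genes form head-to-head pairs, transcribed away from each other. Col4a1 (chr8:11198423-11312826, minus strand) and Col4a2 (chr8:11312829-11449287, plus strand) are separated by 2 bases. Col4a4 and Col4a3 on chromosome 1 are separated by 71 bases, and Col4a6 and Col4a5 on the X chromosome by 1342 bases. The type VI genes Col6a2 (chr10:76595756-76623404) and Col6a1 (chr10:76708792-76726044) lie on the same strand, 85387 bases apart. Col3a1 and Col5a2 lie tail to tail on chromosome 1, and Col6a6, Col6a5 and Col6a4 follow each other on chromosome 9.

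RefSeq windows from 250 bases before to 50 bases after the start site (GRCm38.p6) matched 33 of the 41 members with 35 windows. Windows are shown for a pair of genes with abutting starts, for a pair on the same strand that varied together across mice, and for a pair of fibrillar genes; the Col1a1 window was not used here. Capitals mark matches on either strand to the CCAAT box, to the GC box with the letters GGGCGG, or to the TATA box with the letters TATAAA; overlapping matches run together. The Col4a1 window is chr8:11312777-11313076 on the minus strand and the Col4a2 window chr8:11312555-11312854 on the plus strand, so that they share the stretch from 11312777 to 11312854. The Col6a1 window is chr10:76725995-76726294 and the Col6a2 window chr10:76623355-76623654, both on the minus strand. The windows of Col1a2 (chr6:4505368-4505667) and Col3a1 (chr1:45311288-45311587) are on the plus strand. RefSeq places the start of Col1a2 79 bases and that of Col4a2 24 bases from the deposited start.
Col4a1: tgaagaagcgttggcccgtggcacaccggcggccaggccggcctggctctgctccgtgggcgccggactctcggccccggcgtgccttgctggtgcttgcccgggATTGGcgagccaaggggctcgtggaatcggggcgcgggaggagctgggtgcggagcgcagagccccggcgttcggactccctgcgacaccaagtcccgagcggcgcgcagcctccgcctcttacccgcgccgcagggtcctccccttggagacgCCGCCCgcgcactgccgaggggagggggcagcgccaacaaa
Col4a2: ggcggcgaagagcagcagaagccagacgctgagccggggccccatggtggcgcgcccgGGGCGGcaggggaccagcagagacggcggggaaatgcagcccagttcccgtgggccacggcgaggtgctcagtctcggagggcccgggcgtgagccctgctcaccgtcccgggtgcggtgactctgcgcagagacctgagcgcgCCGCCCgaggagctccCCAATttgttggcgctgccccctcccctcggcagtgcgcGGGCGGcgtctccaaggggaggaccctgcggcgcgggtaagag
Col6a1: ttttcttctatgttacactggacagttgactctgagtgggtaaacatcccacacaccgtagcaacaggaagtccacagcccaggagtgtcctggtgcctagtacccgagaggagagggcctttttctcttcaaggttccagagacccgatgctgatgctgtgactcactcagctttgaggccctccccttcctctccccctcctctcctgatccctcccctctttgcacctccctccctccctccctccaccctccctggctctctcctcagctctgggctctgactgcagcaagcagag
Col6a2: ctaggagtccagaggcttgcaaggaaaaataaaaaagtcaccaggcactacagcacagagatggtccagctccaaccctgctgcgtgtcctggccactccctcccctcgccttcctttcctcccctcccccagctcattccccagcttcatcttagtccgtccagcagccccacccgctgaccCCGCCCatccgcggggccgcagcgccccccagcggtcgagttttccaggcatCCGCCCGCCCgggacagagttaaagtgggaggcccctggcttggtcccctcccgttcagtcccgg
Col1a2: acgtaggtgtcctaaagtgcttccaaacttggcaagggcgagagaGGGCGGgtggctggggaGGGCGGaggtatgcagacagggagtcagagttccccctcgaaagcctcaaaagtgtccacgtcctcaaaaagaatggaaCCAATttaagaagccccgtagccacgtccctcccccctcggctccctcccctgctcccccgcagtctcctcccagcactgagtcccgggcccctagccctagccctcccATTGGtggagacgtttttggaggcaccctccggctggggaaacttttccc
Col3a1: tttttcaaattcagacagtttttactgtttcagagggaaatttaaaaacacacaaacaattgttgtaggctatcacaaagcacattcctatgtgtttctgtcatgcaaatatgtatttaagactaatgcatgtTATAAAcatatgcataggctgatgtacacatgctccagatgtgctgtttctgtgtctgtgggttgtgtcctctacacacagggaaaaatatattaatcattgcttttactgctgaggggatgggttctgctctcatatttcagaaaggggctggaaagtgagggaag
The shared stretch of Col4a1 and Col4a2 holds 1 GC box, which reads as its reverse complement in the Col4a1 window. The Col6a2 window shown has 3 GC boxes, an overlapping pair among them; a second RefSeq window of Col6a2 (chr10:76623581-76623880), whose start lies 226 bases from the deposited one, has 1. The Col6a1 window holds none of the letters searched. Over all 35 collagen windows, a GC box was present in 62.9%, against 35.7% of 32851 windows of all genes, beside a median GC content of 60.0% and 52.7%. The CCAAT box was present in 34.3% of collagen windows and 37.4% of all, and the TATA box in 14.3% and 13.6%. These are matches of letters, not binding sites.

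Collagen transcripts took 0.787% to 1.33% of all counts in a library. To compare chains with each other, CPM were divided by exonic length in kilobases. On this scale Col4a1, the main chain of basement membranes, was the highest collagen at 256 ± 28.8 CPM per kb in wild type and 269 ± 38.2 CPM per kb in knockout (SD, n = 4 each). Next in order of the mean over 8 mice came Col4a2 (197 ± 41.3 and 203 ± 21.0), Col6a1 (163 ± 29.6 and 237 ± 77.0), Col6a2 (171 ± 31.9 and 220.5 ± 80.4), Col3a1 (167 ± 34.2 and 212 ± 96.7) and Col15a1 (174 ± 24.0 and 187 ± 5.87 CPM per kb, wild type and knockout). In wild type, the means of Col4a2 and Col4a1 differed by more than their SD, while the 5 means from Col4a2 to Col15a1 differed by less than the SD of Col4a2. Col5a3, Col1a2, Col1a1 and Col18a1 followed at 121, 95.3, 76.2 and 66.4 CPM per kb in wild type.

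Per length, the 8 basement membrane chains made up 43.8 ± 1.95% of collagen transcripts in wild type and 40.4 ± 6.09% in knockout. Fibrillar chains made up 32.4 ± 2.60% and 32.4 ± 3.51%, type VI chains 22.0 ± 1.49% and 25.6 ± 2.56%, and the 16 other chains 1.73 ± 0.194% and 1.60 ± 0.573% (n = 4 each). The share of type VI was 19.8% to 22.9% in wild-type mice and 22.0% in knockout mouse 2, against 25.8% to 27.8% in the other knockout mice, so the genotypes overlapped through mouse 2 alone. The basement membrane share was lowest in knockout mouse 1, at 33.5%, and was 46.6% in knockout mouse 2, above every wild-type mouse.

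**Figure D1:**
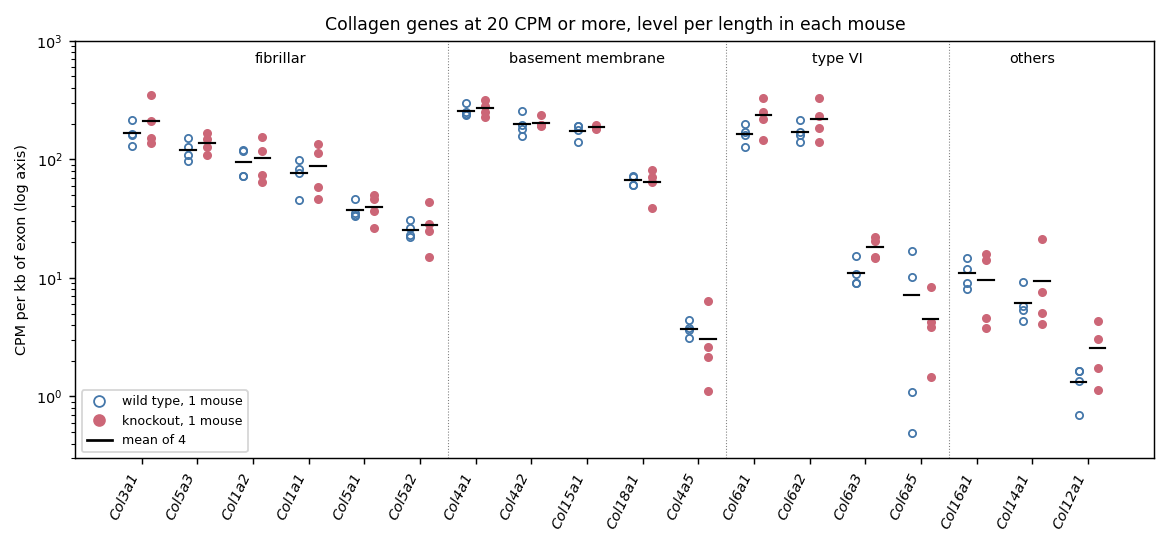
Level of the 18 collagen genes at a mean of 20 CPM or more, as CPM per kb of exon on a log axis, with 1 point per mouse (open, wild type; filled, knockout) and a bar at the mean of 4. Col4a1 is highest, at 256 and 269 CPM per kb, and the wild-type points of Col6a5 are the most spread out.

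**Figure D2:**
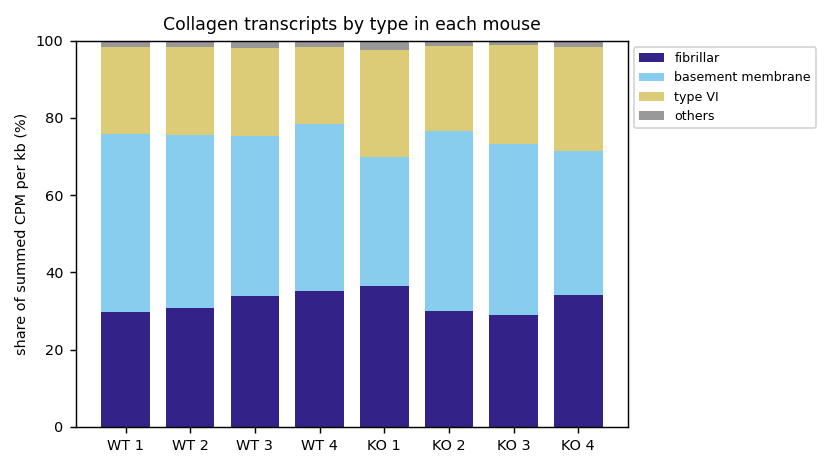
Share of each collagen type in the summed CPM per kb of all 41 collagen genes, 1 stacked bar per mouse (WT, wild type; KO, knockout). The basement membrane share runs from 33.5% in KO 1 to 46.6% in KO 2, and the type VI share is 19.8% to 22.9% in wild type and 22.0% to 27.8% in knockout.

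None of the 35 tested collagen genes passed the edgeR quasi-likelihood test for knockout against wild type at an adjusted p of 0.05, where 0.0138% of the 14493 genes tested passed, and the smallest adjusted p among collagens was 1. DESeq2 called none of the 28 collagens for which it gave an adjusted p, and 0.131% of all genes with one. At an unadjusted edgeR p under 0.05 there were 3 collagens, Col6a3, Col22a1 and Col27a1, or 3 of 35, beside 2.23% of all genes. No tested collagen had genotypes that did not overlap; of all genes tested, 0.621% were higher and 0.821% lower in every knockout mouse. Of the 6 members too scarce to test, Col2a1 and Col19a1 had higher CPM in every knockout mouse than in any wild-type mouse. They had no more than 22 and 7 counts in a library. In both, the highest wild-type count and the lowest knockout count were 2, so the separation rested on library scaling. Col9a2, left out for its low counts, went the other way, with 2 to 3 counts in wild-type mice and 0 in knockouts. The share over all untested genes was not computed. The log2 fold change was above 0 in 23 of 35 collagens with a median of 0.10, beside 53.1% of all genes tested and a median of 0.011.

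By type, 8 of 8 tested fibrillar genes, 5 of 6 type VI genes, 7 of 13 others and 3 of 8 basement membrane genes lay above 0, with medians of 0.16, 0.43, 0.081 and -0.14. These counts rested in large part on knockout mouse 1. That mouse had the highest level of 8 in 17 of the 35 tested collagens, and in 15 of the 18 at 20 CPM or more. Without it, 14 of 35 collagens were above 0 (median -0.037), with 3 of 8 fibrillar and 1 of 8 basement membrane genes, while 53.5% of all genes were above 0. Type VI then stood at 4 of 6, with a median of 0.22. With both libraries that held epithelial transcripts left out, a choice made after the values were seen, 26 of 35 collagens were above 0 (median 0.32), including 8 of 8 fibrillar and 5 of 6 type VI genes, beside 48.8% of all genes. At an unadjusted p under 0.05 there were then 7 collagens beside 805 of 14434 genes, and no collagen passed at an adjusted p of 0.05.

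**Figure D3:**
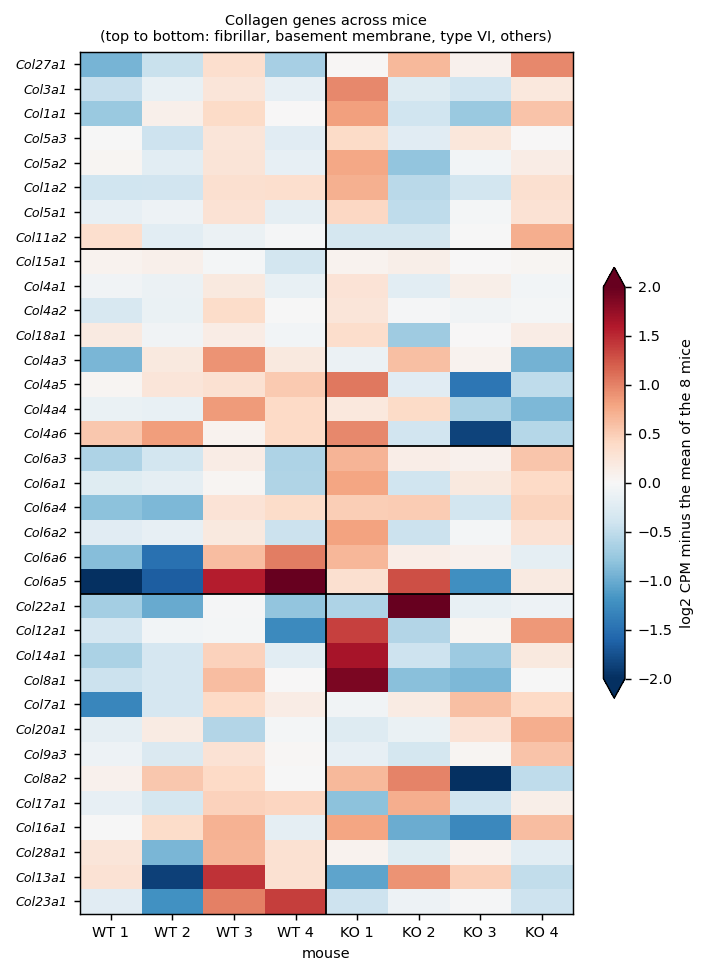
Log2 CPM of the 35 tested collagen genes minus the mean of the 8 mice, 1 column per mouse and 1 row per gene, in blocks by type; red is above and blue below that mean, and colours saturate at 2 either way. The column of KO 1 is red through most of the fibrillar and type VI blocks, and Col22a1 and Col8a2 each hold 1 mouse far from the rest.

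**Figure D4:**
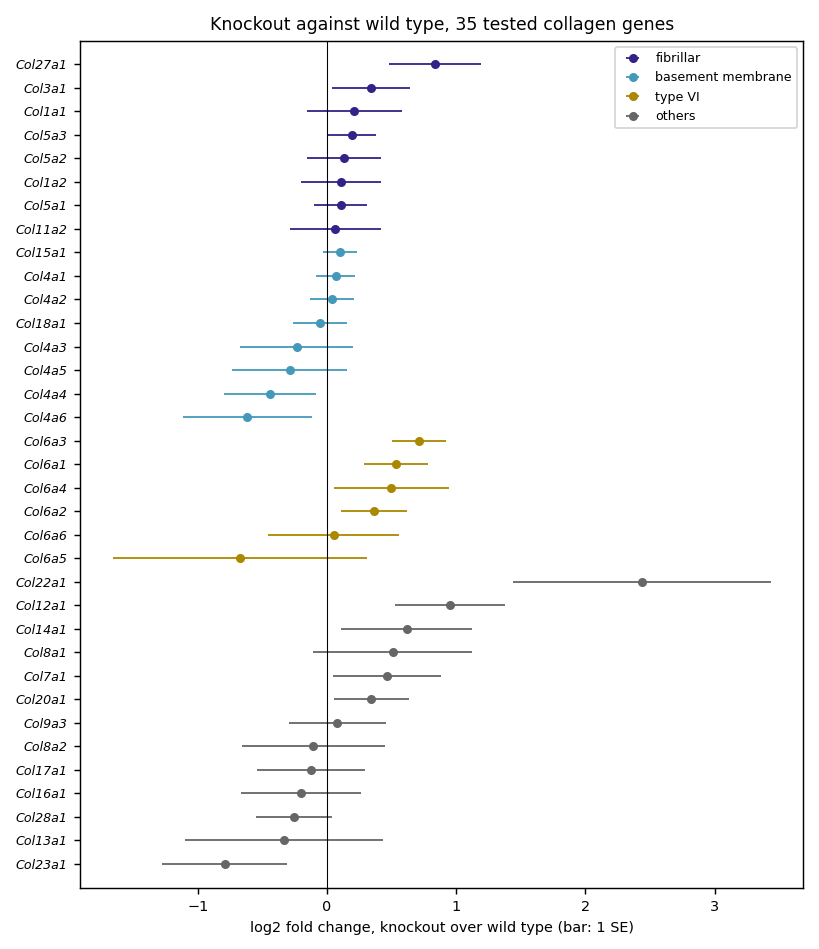
Log2 fold change of knockout over wild type for the 35 tested collagen genes, coloured by type, with bars of 1 SE. All 8 fibrillar points lie right of 0 and most of their bars cross or come close to it; Col22a1 is farthest out at 2.44 with the widest bar.

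Among fibrillar chains, Col3a1, the chain of type III collagen that forms fine reticular fibres, was at 726, 907, 1186 and 899 CPM in wild-type mice 1 to 4 and at 1942, 840.3, 765 and 1163 CPM in knockout mice 1 to 4. Knockout mouse 1 lay above all others and the remaining mice of both genotypes overlapped. Its log2 fold change was 0.34 (SE 0.30, edgeR adjusted p = 1), and -0.011 without knockout mouse 1. Col1a1, a chain of type I collagen, was at 215, 388, 468 and 361 CPM across wild-type mice versus 638, 274, 215 and 533 CPM across knockouts, a log2 fold change of 0.21 (SE 0.37). Its partner chain Col1a2 was at 369, 372, 609.6 and 610.3 CPM across wild-type mice versus 799, 334, 376 and 608 CPM across knockouts, a log2 fold change of 0.11 (SE 0.31). Both type I chains were high in knockout mice 1 and 4 and low in knockout mice 2 and 3.

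Type V collagen sits inside type I fibrils and limits their width. The chain Col5a3 was the most abundant per length of the type V chains, at 772, 583, 918 and 665 CPM across wild-type mice versus 1006, 664, 909 and 778 CPM across knockouts. The genotypes overlapped (log2 fold change 0.19, SE 0.18). Col5a1 was at 311 ± 50.1 CPM (wild type) and 335 ± 88.3 CPM (knockouts), and Col5a2 at 169 ± 26.3 and 185 ± 79.3 CPM (n = 4 each), and their log2 fold changes were 0.11 (SE 0.21) and 0.13 (SE 0.29) in that order. The largest fibrillar difference was in a scarce gene, Col27a1, a fibrillar chain known from cartilage. Col27a1 was at 1.16, 1.65, 2.84 and 1.40 CPM across wild-type mice versus 2.28, 3.54, 2.38 and 4.42 CPM across knockouts. Wild-type mouse 3 lay among the knockout mice (log2 fold change 0.84, SE 0.35, unadjusted p = 0.0423, adjusted p = 1 in edgeR). Col11a2, a minor chain of cartilage fibrils, was at 0.47 to 1.04 CPM in all mice.

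Col4a1, Col15a1 and Col4a2 had the narrowest ranges over the 8 mice of all 35 tested collagens. Col4a1 was at 1646, 1596, 1974 and 1558 CPM across wild-type mice versus 2074, 1491, 1873 and 1667 CPM across knockouts, a log2 fold change of 0.069 (SE 0.15). Col4a2 was at 1019, 1157, 1638 and 1261 CPM across wild-type mice versus 1506, 1249.7, 1217 and 1244 CPM across knockouts, a log2 fold change of 0.040 (SE 0.17). Across the 8 mice the highest value was 1.39 times the lowest for both Col4a1 and Col15a1 and 1.61 times for Col4a2, against 2.67 times for Col3a1 and 2.97 times for Col1a1. Col15a1, which bridges basement membranes to fibrils, was at 927 ± 128 CPM (wild type) and 995 ± 31.2 CPM (knockouts, n = 4 each; log2 fold change 0.10, SE 0.13), with knockout values within 960.4 to 1035 CPM. Col18a1, whose C-terminal fragment is endostatin, an inhibitor of vessel growth, averaged 384 ± 35.1 (wild type) and 370 ± 105 CPM (knockouts; log2 fold change -0.056, SE 0.21), with knockout mouse 2 lowest at 225.5 CPM.

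The minor type IV chains form networks of restricted tissues such as the kidney glomerulus (Col4a3, Col4a4, Col4a5) and smooth muscle (Col4a5, Col4a6). Col4a5 was at 20.2, 23.5, 24.4 and 28.5 CPM across wild-type mice versus 41.1, 16.8, 7.20 and 13.9 CPM across knockouts. Knockout mouse 1 was above and the other knockout mice were below every wild-type mouse, and the log2 fold change was -0.29 (SE 0.45) with all mice and -0.93 without knockout mouse 1. Col4a6 had the same layout, at 13.4, 16.5, 9.64 and 12.1 CPM across wild-type mice versus 17.9, 7.08, 2.51 and 6.20 CPM across knockouts; its log2 fold change was -0.62 (SE 0.50), and -1.30 without knockout mouse 1. With all mice the unadjusted edgeR p was 0.533 for Col4a5 and 0.248 for Col4a6. Without knockout mouse 1 it was 0.00989 and 0.00739, and the adjusted p was 1 for both. Leaving out that mouse removes the only overlap between the genotypes in both genes. The smaller p-values follow from that choice and are no evidence of a difference. No adjusted p of either gene was under 0.939 in any setting tried. Mesothelial markers, 5 of 5 below 0, summed to 585, 908, 246 and 167 CPM across wild-type mice and to 798, 170.1, 104 and 358 CPM in knockout, with mouse 1 again highest among knockouts. Smooth muscle and pericyte markers were 6 of 6 below 0. They summed to 313, 754, 463 and 378 CPM across wild-type mice and 253, 294, 266 and 259 CPM across knockouts. These sums did not overlap, but the lowest was that of knockout mouse 1, the mouse highest in Col4a5 and Col4a6. How often sums of 6 other genes separate the genotypes was not computed. None of the markers in either list was at 0, and Acta2 made up 605 CPM of the sum in wild-type mouse 2. The part of either cell type in the Col4a5 and Col4a6 values was not tested. Col4a4 was at 4.71 ± 1.64 CPM (wild type) and 3.47 ± 1.45 CPM (knockouts, n = 4 each; log2 fold change -0.44, SE 0.36), and Col4a3 at 1.02 to 3.80 CPM in all mice.

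Type VI held the collagen with the smallest p. Col6a3, the long chain whose C-terminal fragment is endotrophin, a signal released by fat, was at 97.4, 116, 166 and 97.6 CPM across wild-type mice versus 239.7, 163, 158 and 220.5 CPM across knockouts. Wild-type mouse 3 lay between the lower pair of knockout mice and the upper pair, and the other wild-type mice were below all knockouts. The log2 fold change was 0.71 (SE 0.21, unadjusted p = 0.00831, adjusted p = 1 in edgeR and 0.438 in DESeq2), and 0.60 without knockout mouse 1. Col6a1 was at 643, 671, 786 and 499.9 CPM across wild-type mice versus 1315, 578, 868 and 1005 CPM across knockouts (log2 fold change 0.54, SE 0.25, unadjusted p = 0.0587, adjusted p = 1 in edgeR). Col6a2 was at 602, 629.7, 804 and 522 CPM across wild-type mice versus 1223, 524, 686 and 857 CPM across knockouts (log2 fold change 0.36, SE 0.26). In both genes knockout mice 1 and 4 lay above all wild-type mice and knockout mouse 2 lay inside the wild-type range. The log2 fold changes of Col6a1, Col6a2 and Col6a3 were above 0 in every setting tried, at 0.33 to 0.82, 0.11 to 0.66 and 0.60 to 0.99, with no adjusted p under 0.438.

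Col6a4, Col6a5 and Col6a6 encode chains that can take the place of the Col6a3 chain. Col6a5 was at 4.56, 10.1, 93.7 and 157 CPM across wild-type mice versus 39.5, 77.1, 13.5 and 36.0 CPM across knockouts. The highest mouse was at 34.4 times the lowest, the widest span of the 35 tested collagens, and both ends of it were wild type. Its log2 fold change was -0.67 (SE 0.98) in edgeR and 0.29 in limma voom. Col6a6 was likewise low in wild-type mice 1 and 2, at 3.38 and 2.16 CPM, and high in wild-type mice 3 and 4, at 9.35 and 12.4 CPM, with knockout mice at 5.40 to 9.72 CPM. The same pair of wild-type mice was high in Pdgfra, a progenitor marker, at 41.5 and 41.4 CPM against 17.0 CPM in each of the others. Summed macrophage markers split alike, at 904 and 695 CPM against 304 and 356 CPM. Mesothelial markers (246 and 167 against 585 and 908 CPM) and adipocyte markers (13852 and 15144 against 19672 and 16302 CPM) split the other way. The part of any cell type in the Col6a5 and Col6a6 values was not tested. Col6a4 was scarce, at 0.20 to 0.58 CPM (log2 fold change 0.50, SE 0.44).

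Of the remaining types, FACIT collagens attach to the surface of fibrils. Col16a1 was at 47.5, 61.6, 76.8 and 42.2 CPM across wild-type mice versus 82.0, 23.8, 19.6 and 73.2 CPM across knockouts, where mouse 1 lay above and mice 2 and 3 lay below all wild-type mice (log2 fold change -0.20, SE 0.46). Col14a1 was at 28.0, 34.3, 59.7 and 37.5 CPM across wild-type mice versus 136, 32.5, 26.3 and 49.4 CPM across knockouts (log2 fold change 0.62, SE 0.51, and -0.14 without knockout mouse 1). Col12a1 was at 15.6, 19.0, 19.2 and 8.15 CPM across wild-type mice versus 50.7, 13.1, 20.1 and 35.8 CPM across knockouts, a log2 fold change of 0.95 (SE 0.43, unadjusted p = 0.0533, adjusted p = 1 in edgeR). In Col12a1, as in Col14a1, knockout mouse 2 stayed within the wild-type range. Col8a1, a short-chain collagen of vessel walls, was highest in knockout mouse 1, at 55.1 CPM, against 7.90 to 22.9 CPM in the other 7 mice.

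Col22a1, a collagen of tissue junctions, had the largest log2 fold change of any collagen, 2.44 (SE 1.00, unadjusted p = 0.0378, adjusted p = 1 in edgeR). It was at 4.07 CPM in knockout mouse 2 and at 0.16 to 0.35 CPM in the other 7 mice, and without that mouse the log2 fold change was 0.34 (SE 0.43). The scarce cartilage collagen Col2a1 and the transmembrane collagen Col25a1 were also highest in that library, with 22 and 19 counts against at most 4 and 3 counts elsewhere. Knockout mouse 2 was also the library with the most epithelial transcripts. The 6 epithelial and ciliary markers together summed to 157 CPM there and to 57.2 CPM in wild-type mouse 3. The sum was 54.7 CPM in wild-type mouse 2, so it did not set wild-type mouse 3 apart as Epcam and Foxj1 did. With both of these libraries left out, the log2 fold change of Col22a1 was 0.64 (SE 0.41). Wild-type mouse 3 held 0.35 CPM of Col22a1; whether the epithelial cells carried this transcript was not tested.

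The transmembrane collagen Col23a1 was at 7.22, 3.61, 17.0 and 22.1 CPM across wild-type mice versus 6.33, 7.82, 8.34 and 6.32 CPM across knockouts (log2 fold change -0.79, SE 0.48). Wild-type mice 3 and 4 were above all knockouts, the same pair that was high in Col6a5. Col28a1, a collagen of peripheral nerve sheaths, was at 9.36 ± 3.66 and 7.84 ± 0.933 CPM, beside Schwann cell markers that summed to 42.0 to 69.8 CPM across wild-type mice and 38.3 to 59.5 CPM across knockouts, mostly Mbp, with Sox10 at 0.23 CPM or less. Col8a2 was at 0.93 CPM in knockout mouse 3 and 2.97 to 8.52 CPM in the other mice. Col20a1 was at 1.62 to 4.05 CPM, and Col7a1, Col9a3, Col13a1 and Col17a1 had means under 1 CPM. Of the 6 members not tested (Col2a1, Col10a1, Col11a1, Col19a1, Col24a1 and Col25a1), none exceeded 22 counts in a library. Beside the cartilage collagen Col2a1, the 5 cartilage markers summed to 2.21 to 11.0 CPM across wild-type mice and 3.81 to 16.2 CPM across knockouts. The highest sum was that of knockout mouse 2, the library highest in Col2a1, with Sox9 at 11.3 CPM. The next highest were wild-type mice 4 and 3, at 11.0 and 8.94 CPM, with 0 and 1 counts of Col2a1. Acan and Matn1 had at most 2 and 1 counts in a library. The part of cartilage-type cells in the Col2a1 value was not tested.

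Chains that share a trimer or a fibril were compared across the 8 mice on log2 CPM, in 6 pairs, with exact permutation p-values adjusted by Benjamini-Hochberg. Collagens that share neither were not compared, so whether these values are particular to partner chains was not tested. Col6a1 and Col6a2 were the most closely related, with Pearson r = 0.959 (exact p = 0.000322, adjusted 0.000967) and Spearman rho = 0.976 (exact p = 0.000397, adjusted 0.00119). Without the 2 mice farthest from the median r was 0.903. Col5a1 and Col5a2 gave r = 0.92 (exact p = 0.000992, adjusted 0.00198) and rho = 0.857 (exact p = 0.0107, adjusted 0.0214), with r = 0.821 (exact p = 0.0583) without the 2 farthest mice. For Col1a1 and Col3a1 r was 0.905 (exact p = 0.000124, adjusted 0.000744) and rho 0.976 (exact p = 0.000397, adjusted 0.00119), with r = 0.897 without the 2 farthest. Col1a1 and Col1a2, which share type I trimers, gave r = 0.843 (exact p = 0.0166, adjusted 0.0199) and rho = 0.69 (exact p = 0.0694, adjusted 0.0833), with r = 0.837 without the 2 farthest. Col6a1 and Col6a3 gave r = 0.842 (exact p = 0.00928, adjusted 0.0139) and rho = 0.762 (exact p = 0.0368, adjusted 0.0551), with r = 0.663 (exact p = 0.158) without the 2 farthest. The relations of Col5a1 with Col5a2 and of Col6a1 with Col6a3 thus did not reach the 0.05 level over the remaining 6 mice. Without knockout mouse 1 alone, r was 0.902 for Col5a1 with Col5a2 and 0.765 for Col6a1 with Col6a3.

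Col4a1 and Col4a2, whose start sites abut, were the least related of the 6 pairs, with r = 0.675 (exact p = 0.0685, adjusted 0.0685) and rho = 0.357 (exact p = 0.389, adjusted 0.389). Without wild-type mouse 3 and knockout mouse 1, the 2 mice farthest from the median of Col4a1, r was -0.118. Without knockout mouse 1 alone, r was 0.561. Leaving out the farthest mice also narrows the range over which r is taken. The other head-to-head pairs were added after their values were seen, with p adjusted over 8 pairs. Col4a5 and Col4a6 gave r = 0.931 (exact p = 0.00139, adjusted 0.00278) and rho = 0.81 (exact p = 0.0218, adjusted 0.0436), and r = 0.747 (exact p = 0.0917) without the 2 farthest mice. Col4a3 and Col4a4 gave r = 0.741 (exact p = 0.033, adjusted 0.0378) and rho = 0.69 (exact p = 0.0694, adjusted 0.0793), with r = 0.683 (exact p = 0.139) without the 2 farthest, so neither reached the 0.05 level over the remaining 6 mice. Without knockout mouse 1 alone, r was 0.928 for Col4a5 with Col4a6 and 0.761 for Col4a3 with Col4a4. Without both libraries with epithelial transcripts, r was 0.674 for Col4a1 and Col4a2, 0.496 for Col4a3 and Col4a4, and 0.831 to 0.966 for the other 6 pairs, with 0.94 (exact p = 0.00833) for Col4a5 and Col4a6. The points of a pair share library and depth, and 4 mice per genotype are too few for a value within a genotype.

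**Figure D5:**
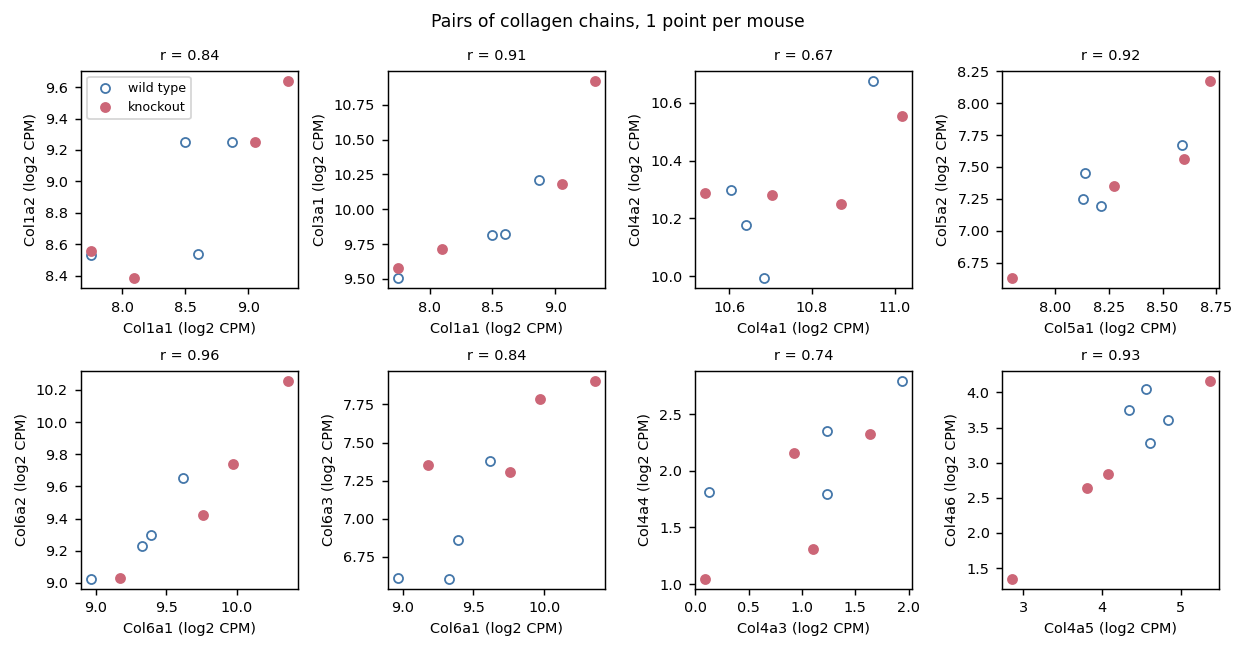
Log2 CPM of 8 pairs of collagen chains, 1 point per mouse (open, wild type; filled, knockout), with Pearson r above each panel. Points of Col6a1 and Col6a2 fall near a line (r = 0.96) while those of Col4a1 and Col4a2 do not (r = 0.67).

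Levels per kilobase were also set against each other as a ratio within each pair. Col6a1 over Col6a2 was 0.899 to 1.00 in wild-type mice and 1.01 to 1.19 in knockout mice, 0.954 ± 0.0540 and 1.08 ± 0.0796 (SD, n = 4 each). This was the only ratio of 8 examined in which the genotypes did not overlap, and it was not tested. The gap was narrow, between 1.002 in wild-type mouse 1 and 1.008 in knockout mouse 1. How often ratios of other gene pairs separate the genotypes was not computed. Col4a1 over Col4a2 was 1.32 ± 0.182 and 1.32 ± 0.138, and Col1a1 over Col1a2 was 0.817 ± 0.236 and 0.839 ± 0.147.

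Genes that make, bind or organise collagen did not pass either. Of 29 tested genes for collagen processing and crosslinking, 12 were above 0 and 17 below (median -0.050, beside 0.011 over all genes), and none passed. Per length, the highest of these were Serpinh1, the collagen chaperone HSP47 (978 ± 448 and 887 ± 139 CPM, wild type and knockout), P4hb, a subunit of prolyl 4-hydroxylase (705 ± 176 and 713 ± 93.4 CPM), and Ppib, a prolyl isomerase (165 ± 21.9 and 166 ± 19.6 CPM; n = 4 each). Ppib shares exonic bases with Snx22, so its counts are less certain. Their log2 fold changes were -0.14 (SE 0.29), 0.017 (SE 0.18) and 0.0012 (SE 0.13). Serpinh1 was at 1618 CPM in wild-type mouse 2, which was also highest in P4hb at 969 CPM, and at 576 to 1027 CPM elsewhere.

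Of 9 tested collagen receptors 4 were above 0, and the highest per length, the integrin subunit Itgb1, the adhesion receptor Gpr56 and the receptor kinase Ddr1, had log2 fold changes of -0.12 (SE 0.12), -0.073 (SE 0.21) and -0.026 (SE 0.20). Among 9 fibril-associated proteoglycans 5 were above 0. Prelp and decorin (Dcn) were at log2 fold changes of 0.025 (SE 0.30) and -0.21 (SE 0.22), and biglycan (Bgn) was at 291, 276, 492 and 374 CPM across wild-type mice and 824, 467, 337 and 560.4 CPM across knockouts (log2 fold change 0.61, SE 0.29, unadjusted p = 0.0633, adjusted p = 1 in edgeR). Of 16 basement membrane partners 6 were above 0, and the log2 fold change was 0.14 (SE 0.22) for Sparc, -0.022 (SE 0.21) for Nid1 and 0.12 (SE 0.18) for perlecan (Hspg2). Of 16 genes of TGF-beta signalling, a main inducer of collagen genes, 5 were above 0. Ltbp3 and Ltbp4, which bind latent TGF-beta in the matrix, had log2 fold changes of -0.0078 (SE 0.13) and -0.091 (SE 0.22). The counts of Ltbp3 are less certain, since some of its exonic bases are shared. None of these lists had a member past the threshold, and the smallest unadjusted p in them was 0.0633.

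Markers of matrix-producing and other cells varied between mice beside the collagens. The 8 progenitor and fibroblast markers, 6 of them above 0, summed to 603 to 891 CPM across wild-type mice and 650 to 1069 CPM across knockouts, and the highest sum was that of knockout mouse 1. The 6 macrophage markers were all above 0. They summed to 304, 356, 904 and 695 CPM across wild-type mice and 962, 387, 464 and 1567 CPM across knockouts. Mice 1 and 4 were highest among knockouts, as for type I and type VI collagen. Mouse 4 was the higher of them in these markers and mouse 1 in those collagens. Wild-type mouse 4, with these markers at 695 CPM, had the lowest summed type VI level of the 8 mice, at 1289 CPM. Endothelial markers summed to 647 to 984 and 653 to 1028 CPM. No defining marker of these 3 lists was at 0. The part of these cells in the collagen values was not tested.

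Of the 11 genes with an unadjusted edgeR p under 0.001 in the whole comparison, 7 were on chromosome 9. The interval that they span, 78191966 to 110747145, was drawn from these p-values. It holds 5 of the members. These were Col12a1, Col6a4, Col6a5, Col6a6 and Col7a1, with unadjusted edgeR p of 0.0533, 0.292, 0.51, 0.92 and 0.297. Col6a4, Col6a5 and Col6a6 are neighbours there. The share of all tested genes that lies in the interval was not computed, so whether 5 members are many cannot be told.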

How the data were processed

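RNA-seq counts from whole fat of 4 wild-type and 4 knockout mice were used as deposited. The authors' deposited values are whole-number counts per gene symbol; the submitters' processing notes list mm10 as the build and, without a role for each, edgeR, Cufflinks, featureCounts, STAR 2.4.0g1 and FastQC 0.11.2. The strand setting is not given in the sources used here. Exonic lengths came from the authors' deposited annotation.

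Genes were filtered with filterByExpr, scaled by TMM and tested with the edgeR 4.0.16 (R 4.3.3) quasi-likelihood test, robust, without covariates, with Benjamini-Hochberg adjustment over all 14493 genes tested and a threshold of 0.05. The biological coefficient of variation was 0.301. Log2 CPM used a prior count of 2. SE is that implied by the F statistic. Counts of mice of 1 genotype differed by a chi-square of at least 63.0 per degree of freedom, so no libraries were merged; separate mice are taken from the labels. The procedure was tested on simulated data. Fold changes are given for members at 20 CPM or more and, below that, for the smallest p per type and direction. Col4a6 falls outside this rule and was added after its values were seen. Further lists are shown by their 3 highest members per length. Members and lists were chosen with earlier results of these data known. Other genes were named after their values were seen. Listed symbols were matched through older symbols in 10 cases. Alternatives were DESeq2 1.42.0, limma 3.58.1 voom, scalings, filters, a replicate block and leaving out mice. The deleted gene and 1 gene chosen by the rule for lists are not reported here.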

Additional observations from a re-analysis of the deposited data

Results flagged for a closer look

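Among 110 groups of 4 mice examined, 7 held a mouse far from the other 3 on log2 CPM, where chance gives about 5.5. Col4a2 was at 10.56 in knockout mouse 1 and at 10.25 to 10.29 in the other knockouts. Col22a1 was at 2.04 in knockout mouse 2, the library with the most epithelial transcripts, and at -1.96 to -1.44 in the other knockouts. Col6a4 was at -1.57 in knockout mouse 3 and at -0.75 to -0.70 in the others. The summed level of all 41 collagens was at 13.41 in wild-type mouse 3 and at 12.99 to 13.04 in the other wild-type mice. P4hb was at 9.92 in wild-type mouse 2 against 9.22 to 9.29 in the others. Ppib was at 7.09 in knockout mouse 3 against 7.42 to 7.47, and Ltbp3 at 8.66 in knockout mouse 2 against 9.06 to 9.14.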

How the results depend on the processing

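No collagen was called in any of the 17 alternative settings. Over all genes, the 2 calls became 0 with total-count scaling, no low-count filter, the replicate block, limma voom, any 1 mouse left out (0 in all 8 such fits) or without both libraries with epithelial transcripts, and 17 with DESeq2. Same-numbered mice showed no pairing (correlations of deviations of 0.118, -0.0168, -0.318 and -0.0171), and under the block 24 of 35 collagens were above 0. The number above 0 ran from 14 (without knockout mouse 1) to 26 when 1 mouse was left out, and was 26 without the epithelial libraries, with a median of 0.32 there. Chain order per kb was the same with the longest transcript's length.

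Of 38 genes followed across settings, 17 kept their direction in all settings. Directions turned without both epithelial libraries for Col16a1 (0.21), Col18a1 (0.15), Gpr56 (0.13), Ltbp3 (0.11), Ltbp4 (0.13), Nid1 (0.18), P4hb (-0.12) and Ppib (-0.030); with total counts for Ddr1 (0.012), Ltbp3 (0.023) and Nid1 (0.0024); without the filter for Ppib (-0.0090); and under the block and limma voom for Col6a5 (0.26, 0.29) and Prelp (-0.078, -0.083). Leaving out 1 mouse gave ranges across 0: Col14a1 -0.14 to 0.88, Col16a1 -0.55 to 0.065, Col18a1 -0.20 to 0.12, Col1a1 -0.073 to 0.43, Col1a2 -0.16 to 0.27, Col3a1 -0.011 to 0.50, Col4a1 -0.015 to 0.15, Col4a2 -0.051 to 0.19, Col5a1 -0.021 to 0.26, Col5a2 -0.17 to 0.34, Col6a5 -1.17 to 0.19, Ddr1 -0.12 to 0.14, Gpr56 -0.24 to 0.078, Ltbp3 -0.057 to 0.088, Ltbp4 -0.24 to 0.058, Nid1 -0.13 to 0.11, P4hb -0.075 to 0.21, Ppib -0.077 to 0.082, Prelp -0.16 to 0.26, Serpinh1 -0.32 to 0.21 and Sparc -0.053 to 0.28. The cause of these turns was not tested. Scarce collagens such as Col6a4, at 10 to 29 counts per library, are limited by depth.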
